A study of Mus musculus with 8 samples.

Results

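The 9 genes described here encode DNA methyltransferases and chromatin proteins that keep retroelements and other repeats silent, and were taken by name as enzymes and cofactors whose loss is known to release double-stranded RNA (dsRNA) from repeats. They were Dnmt1, Uhrf1, Hells, Dnmt3a, Dnmt3b, Trim28, Setdb1, Ehmt2 and Kdm1a. All 9 were found among the 52636 genes of the count table, and all 9 were among the 17378 genes with enough counts to be tested. The libraries came from a study of mice lacking both VPS13A and VPS13C, lipid transfer proteins that bridge membranes, and the study's interest in dsRNA sensing raised the question of whether genes that restrain repeats differ in the mutant cells. Bulk RNAseq was carried out on S0 cells of the fetal liver at E12.5, midgestation, in 4 wild-type (WT) and 4 double knockout (DKO) libraries. S0 cells are live cells negative for markers of non-erythroid lineages, for CD71 (the transferrin receptor) and for Ter119 (a protein of mature red cells). They are labelled as erythroid precursors.

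DKO embryos lacked Vps13a, through the tm1d allele generated with a FLP and then a β-actin-Cre transgenic line, which deletes throughout the body, and were Vps13c-/-. All mice were kept on a C57BL/6J background. The methods name matings of heterozygous mice, and the text on the sort traces the WT embryos as well as the mutants to Vps13a+/-/Vps13c-/- parents. Such parents cannot give an embryo that is wild type for Vps13c. Elsewhere the study treats WT livers as a group apart from Vps13c-/- controls, with similar live-cell percentages and erythroid stages in both. WT embryos with intact Vps13c would need other parents than DKO embryos from the cross described. The sources used here do not state the Vps13c genotype or the litters of the WT libraries beyond the label, wild type. Whether litters differed was not tested. The labels do not state that each library was a separate embryo, and p-values then measure the spread between these libraries only.

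DNA methylation is copied at each cell division by DNMT1, which UHRF1 brings to newly replicated DNA and which the nucleosome remodeller HELLS helps to reach packed chromatin. DNMT3A and DNMT3B set new methylation marks. A second layer of silencing rests on methylation of lysine 9 of histone H3 (H3K9), for which TRIM28 recruits SETDB1 to sequences bound by KRAB zinc finger proteins, while EHMT2 (G9a) adds H3K9 dimethylation and KDM1A removes active marks on lysine 4. Cells that lose parts of this machinery can transcribe retroelements on both strands, and the product can be sensed as dsRNA. The counts cover annotated genes only. Repeats, DNA methylation and proteins were not analysed here.

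Counts summed to between 42114489 and 50886469 per WT library and between 36981439 and 42587815 per DKO library. Vps13a, the targeted gene, ranged from 1825 to 2109 normalized counts in WT libraries and from 607 to 1039 in DKO libraries (log2 fold change -1.29, edgeR adjusted p = 0.00247). The groups differed in more than genotype. All 4 WT libraries held the Y-linked transcript Ddx3y (2911 to 3354 normalized counts) and almost no Xist (0 to 30.1), whereas DKO replicates 1, 2 and 4 held Xist (18029 to 27043) and DKO replicate 3 alone resembled WT in both (62.3 Xist and 2516 Ddx3y). The 6 mesenchyme markers all rose in DKO, and their summed level was 1103 to 4179 in WT and 8882 to 32086 in DKO, with replicate 1 the highest and no marker at 0. Of 8 myeloid and macrophage markers 6 fell, with sums of 99941 to 134107 in WT and 4930 to 40897 in DKO, replicate 1 again standing apart and Adgre1 at 0 in replicate 4. Of 6 early progenitor markers 4 fell, and of 8 erythroid markers 3 rose, among them Epor. The sums of the erythroid list overlapped between groups, at 33220 to 39215 in WT and 32870 to 48640 in DKO, so that both groups expressed the genes of the labelled cell type. Transcripts of hepatoblasts, the epithelial cells of fetal liver, were abundant in both groups (442785 to 616752 in WT and 146925 to 534071 in DKO). None of 7 passed the test, but 6 had a negative log2 fold change and the list median was -0.83. In bulk libraries, fewer cells of a type and less RNA per cell cannot be told apart.

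Promoter windows of the 9 genes were read for sequence features that genes falling together might share. The RefSeq table for GRCm38.p6 held 15 windows for them, each of 300 bases from 250 before to 50 after an annotated start. After the member values were known, the windows were searched on both strands for an E2F-type motif, the binding motif of the factors that drive S-phase genes, spelled TTTCCCGC, TTTCGCGC, TTTGCCGC or TTTGGCGC. It occurred in 3 of the 15 windows, 1 each for Dnmt1, Uhrf1 and Hells, the 3 members of the maintenance pathway, and in 2.26% of all 32851 windows. The 3 windows are shown for this motif, in capitals, and that of Dnmt3b, the gene with the largest difference between genotypes, for its absence. All are written on the strand of the gene.
Dnmt1, chr9:20952574-20952873, minus strand: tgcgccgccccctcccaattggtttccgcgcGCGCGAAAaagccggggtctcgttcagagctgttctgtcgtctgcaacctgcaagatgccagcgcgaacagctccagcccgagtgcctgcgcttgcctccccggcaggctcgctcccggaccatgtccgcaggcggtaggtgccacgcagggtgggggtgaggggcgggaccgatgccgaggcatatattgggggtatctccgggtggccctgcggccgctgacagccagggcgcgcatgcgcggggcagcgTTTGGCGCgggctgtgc
Uhrf1, chr17:56304063-56304362, plus strand: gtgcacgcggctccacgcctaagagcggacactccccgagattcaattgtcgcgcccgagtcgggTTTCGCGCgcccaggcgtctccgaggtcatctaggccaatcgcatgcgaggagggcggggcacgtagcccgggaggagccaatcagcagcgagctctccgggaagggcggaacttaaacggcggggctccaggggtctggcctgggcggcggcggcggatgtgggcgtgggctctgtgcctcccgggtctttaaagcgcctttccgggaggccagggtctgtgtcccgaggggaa
Hells, chr19:38930740-38931039, plus strand: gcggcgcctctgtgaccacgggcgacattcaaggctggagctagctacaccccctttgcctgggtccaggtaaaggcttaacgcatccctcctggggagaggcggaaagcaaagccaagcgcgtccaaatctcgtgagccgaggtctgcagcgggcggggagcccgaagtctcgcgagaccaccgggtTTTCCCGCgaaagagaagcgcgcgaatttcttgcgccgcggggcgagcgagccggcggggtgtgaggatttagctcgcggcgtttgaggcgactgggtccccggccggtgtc
Dnmt3b, chr2:153649199-153649498, plus strand: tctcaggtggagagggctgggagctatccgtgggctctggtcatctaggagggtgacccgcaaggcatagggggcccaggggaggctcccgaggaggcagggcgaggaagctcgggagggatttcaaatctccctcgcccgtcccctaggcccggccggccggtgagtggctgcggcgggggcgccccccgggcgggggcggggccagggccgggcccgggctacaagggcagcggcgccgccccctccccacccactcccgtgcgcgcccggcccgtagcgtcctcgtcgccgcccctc
The Dnmt1 window belongs to the most downstream of 3 annotated starts and held matches beginning at bases -219 and 33 from its start, the first of which lies downstream of the other two starts. The Uhrf1 window belongs to the second of 2 starts, with a match from base -185, and the Hells match began at base -62. The windows without the motif included those of Dnmt3a, Trim28, Setdb1, Ehmt2 and Kdm1a. An interferon response type motif, spelled GAAANNGAAA, was in none of the 15 windows and in 3.44% of all, and a CCAAT box was in 6 of the 15 and in 37.4% of all. No E2F-type match overlapped a CCAAT box. A match is a string of letters and not a measured site. CpG pairs were frequent in the windows shown, with an observed to expected ratio of 0.91 for Dnmt1, 0.96 for Uhrf1, 1.06 for Hells and 0.69 for Dnmt3b, against a median of 0.38 over all windows. The E2F-type motif itself contains CpG, and its share among windows as rich in CpG was not counted.

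At an adjusted p under 0.05, 3 of the 9 genes fell in DKO (Dnmt1, Uhrf1 and Dnmt3b) and 1 rose (Ehmt2), while Hells, Dnmt3a, Trim28, Setdb1 and Kdm1a did not pass. Over all genes tested, 10.8% fell and 10.7% rose at this threshold. With a log2 fold change beyond 1 required as well, which is the threshold of the study, Dnmt3b alone remained, against 2.43% of all genes lower and 6.19% higher. The median log2 fold change of the 9 genes was -0.02 and that of all genes 0.03. In 4 of the 9 the WT and DKO ranges were separate, which held for 28.1% of all genes tested. Dnmt1, Uhrf1, Dnmt3b and Ehmt2 kept an adjusted p under 0.05 in each of the 15 alternative fits with more than 1 library per group, including each that left out 1 library. DKO replicate 3, the DKO library with the sex-linked transcripts of WT, had log2 fold changes over WT of -0.53 for Dnmt1, -0.39 for Uhrf1, -0.78 for Dnmt3b and 0.44 for Ehmt2. With 1 DKO library the spread comes from WT alone, so these are values without a test of DKO.

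**Figure D1:**
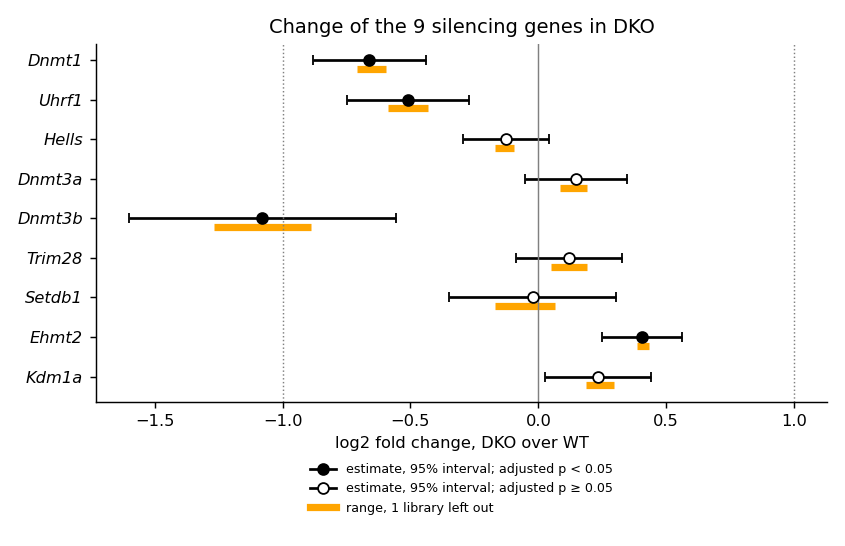
Log2 fold change of each gene in DKO over WT (x axis), with 95% intervals that are not adjusted for the number of genes; filled points passed an adjusted p of 0.05, and orange bars span the estimates with 1 library left out. Dnmt3b lies furthest from 0, at -1.08, and its orange bar crosses the dotted line at -1.

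Dnmt1, the maintenance methyltransferase (ENSMUSG00000004099.16, chromosome 9, 20907209 to 20959888, minus strand), had 13554, 12549, 11641 and 13646 normalized counts in the 4 WT libraries. In DKO it had 7037, 8749, 9007 and 7715. Every DKO library was thus below every WT library, with DKO replicates 1 and 4 the lowest. The mean fell from 12847 ± 946 to 8127 ± 916 (SD, n = 4 each), by 36.7%, a log2 difference of -0.66 with an SE of 0.098 (edgeR adjusted p = 0.00357; exact two-sided permutation test, p = 0.0286, the smallest that 4 against 4 allow). Leaving out 1 library at a time moved this value between -0.71 and -0.59.

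Uhrf1, which recognises half-methylated DNA behind the replication fork (ENSMUSG00000001228.14, chromosome 17, 56303321 to 56323486, plus strand), had 15041, 14070, 13883 and 13963 normalized counts in WT. In DKO the counts were 9153, 11480, 11009 and 8378. The groups did not overlap, and the same 2 DKO libraries, replicates 1 and 4, were lowest. The mean fell from 14239 ± 540 to 10005 ± 1478 (SD, n = 4 each), a log2 difference of -0.51 with an SE of 0.106 (adjusted p = 0.0113 by edgeR and unadjusted p = 0.0286 by exact permutation).

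Hells, the remodeller of the maintenance pathway (ENSMUSG00000025001.11, chromosome 19, 38930915 to 38971051, plus strand), had 8393, 8053, 7495 and 7622 normalized counts in WT. The DKO libraries had 6965, 7794, 7368 and 6791, overlapping the WT range. The log2 fold change was -0.13 with a 95% interval from -0.30 to 0.04 (edgeR adjusted p = 0.263; exact permutation p = 0.114). This interval lay above the estimates of both Dnmt1 and Uhrf1, the other genes with the E2F-type motif. It overlapped the 95% interval of Uhrf1 (-0.75 to -0.27) but not that of Dnmt1 (-0.88 to -0.44). The ratio of Uhrf1 to Hells was not tested. The ratio of Dnmt1 to Hells counts within a library was 1.55 to 1.79 in WT and 1.01 to 1.22 in DKO, without overlap, a log2 difference of -0.54 (exact two-sided permutation p = 0.0286, adjusted over 5 ratios 0.0714, and 0.0476 to 0.143 with 1 library left out). The ratio of Dnmt1 to Uhrf1 was 0.839 to 0.977 in WT and 0.762 to 0.921 in DKO, with overlapping groups and a log2 difference of -0.14 (exact permutation p = 0.143, adjusted 0.179).

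**Figure D2:**
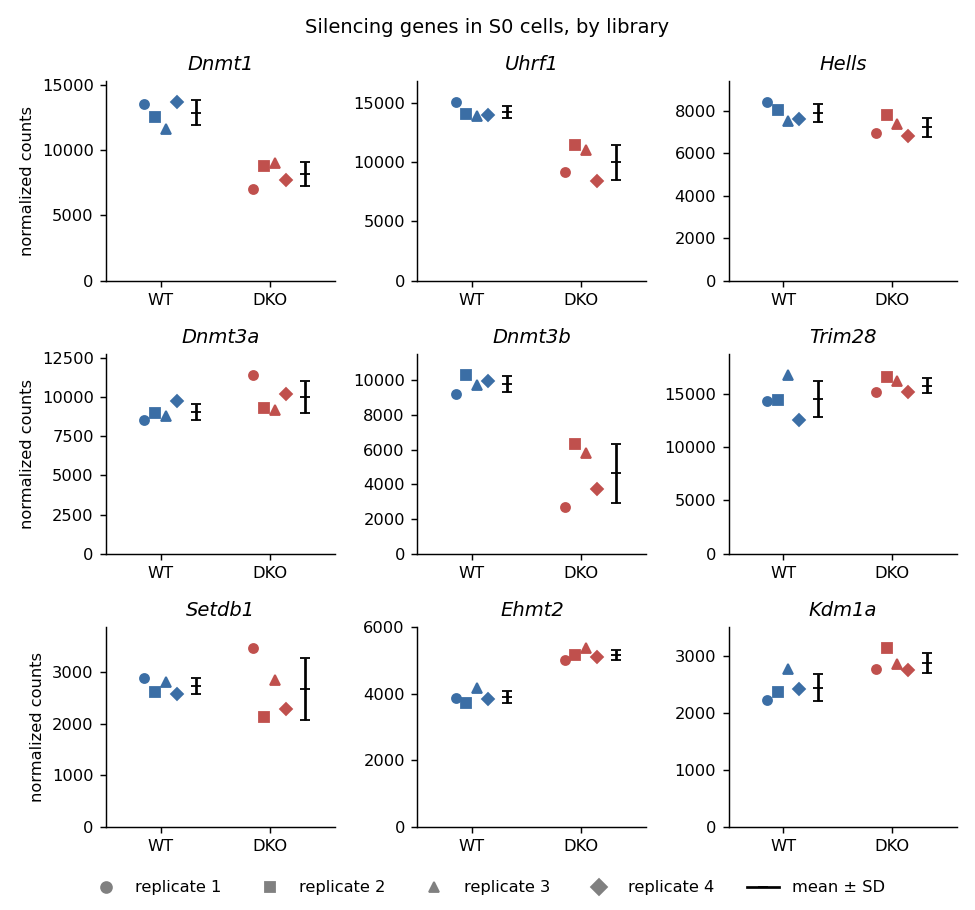
Normalized counts (y axis, from 0) of the 9 genes in each WT and DKO library, with one marker shape per replicate number and the mean ± SD beside the points. The groups separate for Dnmt1, Uhrf1, Dnmt3b and Ehmt2 and overlap for the other genes.

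Dnmt3b, a de novo methyltransferase most active in early embryos and stem cells (ENSMUSG00000027478.15, chromosome 2, 153649450 to 153687730, plus strand), had 9195, 10280, 9743 and 9940 normalized counts in WT. In DKO it had 2700, 6312, 5796 and 3729. All 4 DKO libraries were below all WT libraries, and they differed more among themselves than the WT libraries did. The mean fell from 9790 ± 454 to 4634 ± 1705 (SD, n = 4 each), a 2.11-fold difference, or -1.08 on the log2 scale with an SE of 0.233 and a 95% interval from -1.60 to -0.56 (adjusted p = 0.0126 by edgeR and p = 0.0286 by exact permutation). It was -0.89 without DKO replicate 1 and -0.99 without DKO replicate 4, past the adjusted p but inside the fold threshold. The 4 DKO libraries fell in the order of replicates 1, 4, 3 and 2 from the lowest. Their mesenchyme sums were 32086, 14670, 9995 and 8882 in that same order. Of the single mesenchyme markers, Col3a1 and Pdgfra followed this order from the highest. Col1a1, Lum, Des and Acta2 followed it only in part, with replicate 1 highest in each. The sums of the other marker lists that differed without overlap did not follow this order throughout. In the same order of libraries they were 4930, 31814, 27640 and 40897 for the myeloid markers. Those of the early progenitor markers were 20081, 19861, 24032 and 25655. For the endothelial markers they were 1654, 1857, 1984 and 1619, against 2651 to 3476 in WT. The sum of 24 DNA replication genes, also lower in DKO, was 156800, 170847, 204385 and 184596 in this order. The part that other cells play in the lower Dnmt3b was not tested.

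Dnmt3a, the other de novo methyltransferase (ENSMUSG00000020661.15, chromosome 12, 3806007 to 3914443, plus strand), had 8573, 9011, 8833 and 9792 normalized counts in WT. In DKO it had 11414, 9306, 9206 and 10204, within the WT range in replicates 2 and 3. The log2 fold change was 0.15 with a 95% interval from -0.05 to 0.35 (edgeR adjusted p = 0.264; exact permutation p = 0.143). An antisense gene, Dnmt3aos, shares 0.80% of its exon bases.

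The balance of the 2 de novo enzymes was read from their counts within each library. Counts of Dnmt3a divided by those of Dnmt3b were 0.932, 0.877, 0.907 and 0.985 in WT and 4.23, 1.47, 1.59 and 2.74 in DKO. Thus Dnmt3b counts exceeded those of Dnmt3a in all WT libraries, and the reverse held in all DKO libraries. The geometric mean of the ratio was 2.47-fold higher in DKO (exact two-sided permutation p = 0.0286, adjusted over 5 ratios 0.0714). Since 0.0286 is the smallest p of the design, 2 of the 5 ratios at that value could not pass 0.05 after adjustment. The adjusted p was 0.143 without any 1 WT library and 0.0714 without DKO replicate 2, 3 or 4. It was 0.0476 (exact permutation) without DKO replicate 1, where Ehmt2/Setdb1 also reached the smallest p, and the log2 difference was then 1.01. Such a ratio does not depend on how libraries are scaled, and counts of different genes also depend on their length.

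**Figure D3:**
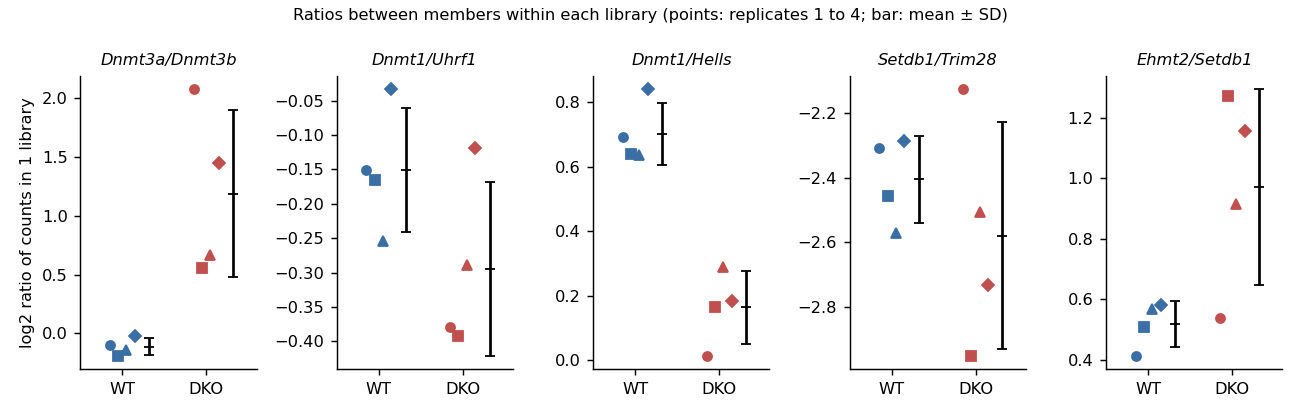
Log2 ratios of the counts of 2 genes within each library (y axis, a scale of its own in each panel) for the 5 pairs compared, with markers for replicates 1 to 4 and the mean ± SD. The groups separate for Dnmt3a/Dnmt3b and Dnmt1/Hells and overlap for the other pairs.

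Among the genes of H3K9 methylation, Ehmt2 (ENSMUSG00000013787.15, chromosome 17, 34898469 to 34914052, plus strand) had WT normalized counts of 3859, 3729, 4171 and 3844, against 5028, 5160, 5363 and 5097 in DKO. No DKO library reached down to the WT range, and the 4 DKO libraries lay close together, unlike those of Dnmt3b. The mean rose from 3901 ± 189 to 5162 ± 145 (SD, n = 4 each), by 32.3%, a log2 difference of 0.40 with an SE of 0.070 (adjusted p = 0.00578 by edgeR and p = 0.0286 by exact permutation).

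Trim28, the corepressor that KRAB zinc finger proteins recruit (ENSMUSG00000005566.14, chromosome 7, 12999114 to 13031035, plus strand), had WT normalized counts of 14349, 14404, 16728 and 12547, against 15127, 16531, 16165 and 15210 in DKO. The DKO values lay inside the WT range. The log2 fold change was 0.12 with a 95% interval from -0.09 to 0.33 (edgeR adjusted p = 0.393; exact permutation p = 0.200).

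Setdb1, the H3K9 methyltransferase of the TRIM28 complex (ENSMUSG00000015697.14, chromosome 3, 95323525 to 95357202, minus strand), had WT normalized counts of 2897, 2621, 2815 and 2572, against 3464, 2138, 2842 and 2288 in DKO. The WT values lay inside the DKO range. The log2 fold change was -0.02 with a 95% interval from -0.35 to 0.30 (edgeR adjusted p = 0.930), and it was -0.17 without DKO replicate 1, the library with the highest value. Of its exon bases, 1.09% are shared with Cers2 and 3.63% with Gm37500. The ratio of Setdb1 to Trim28 was 0.168 to 0.205 in WT and 0.129 to 0.229 in DKO (log2 difference -0.17, exact permutation p = 0.371, adjusted 0.371). The ratio of Ehmt2 to Setdb1 was 1.33 to 1.49 in WT and 1.45 to 2.41 in DKO, where only replicate 1 fell into the WT range (log2 difference 0.45, exact permutation p = 0.0857, adjusted 0.143), and without that library the difference was 0.60 (adjusted 0.0476, permutation). Without any other single library the adjusted permutation p of this ratio was 0.107 to 0.190.

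Kdm1a, the demethylase LSD1 (ENSMUSG00000036940.15, chromosome 4, 136550540 to 136602723, minus strand), had WT normalized counts of 2223, 2367, 2775 and 2423, against 2778, 3136, 2853 and 2750 in DKO. Only the lowest DKO library, replicate 4, lay below the highest WT library, replicate 3. The log2 fold change was 0.23 with an unadjusted 95% interval from 0.03 to 0.44, and it did not pass after adjustment over all genes (edgeR adjusted p = 0.0992; exact permutation p = 0.0571). With upper-quartile scaling, which moved the median log2 fold change of all genes from 0.03 to 0.14, the value was 0.34 and the adjusted p 0.0324.

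Levels were compared between the genes as normalized counts per kilobase of annotated exon. In WT the order was Trim28 (3489 ± 412), Uhrf1 (3343 ± 127), Dnmt3b (1917 ± 88.9), Dnmt1 (1742 ± 128), Hells (1095 ± 57.1), Ehmt2 (711 ± 34.5), Dnmt3a (544 ± 31.5), Kdm1a (472 ± 45.2) and Setdb1 (398 ± 22.6; SD, n = 4 libraries). Trim28 and Uhrf1, Dnmt3b and Dnmt1, and Dnmt3a and Kdm1a were neighbours whose WT libraries overlapped. In DKO the order was Trim28 (3790 ± 168), Uhrf1 (2349 ± 347), Dnmt1 (1102 ± 124), Hells (1003 ± 62.1), Ehmt2 (940 ± 26.4), Dnmt3b (908 ± 334), Dnmt3a (603 ± 61.6), Kdm1a (556 ± 34.1) and Setdb1 (392 ± 87.9). Here the neighbours from Dnmt1 to Kdm1a overlapped one after the other, and the others did not. Dnmt3b thus stood above Dnmt1 in WT and behind Hells and Ehmt2 in DKO, although its DKO libraries (529 to 1236 per kilobase) overlapped those of Dnmt1, Hells, Ehmt2, Dnmt3a and Kdm1a. The exon length of Dnmt3a, 16642 bases over all annotated transcripts, is the longest of the 9 and lowers its value per kilobase where short transcripts are used. All 9 genes were well expressed: the mean WT count of Kdm1a, the lowest, was above that of 76.3% of the genes tested, and that of Trim28 above that of 97.2%.

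The genes whose pattern over the 8 libraries was nearest to that of Dnmt1, by the root mean square difference of centred log2 normalized counts among 11583 other protein-coding genes, were Sept9 (0.042), a septin of the cytoskeleton, Mcm3 (0.048), a subunit of the replicative helicase, and Jpt2 (0.049). Of the other members, Uhrf1 was nearest to Dnmt1 at 0.119, followed by Hells at 0.284 and Dnmt3b at 0.363, and Ehmt2 was furthest at 0.550. All 8 libraries entered this measure, so it includes the difference between genotypes. Mcm3 ranged from 16214 to 19142 in WT and from 10459 to 13786 in DKO (log2 fold change -0.60, edgeR adjusted p = 0.00652). Its lowest DKO libraries were replicates 1 and 4, as for Dnmt1.

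**Figure D4:**
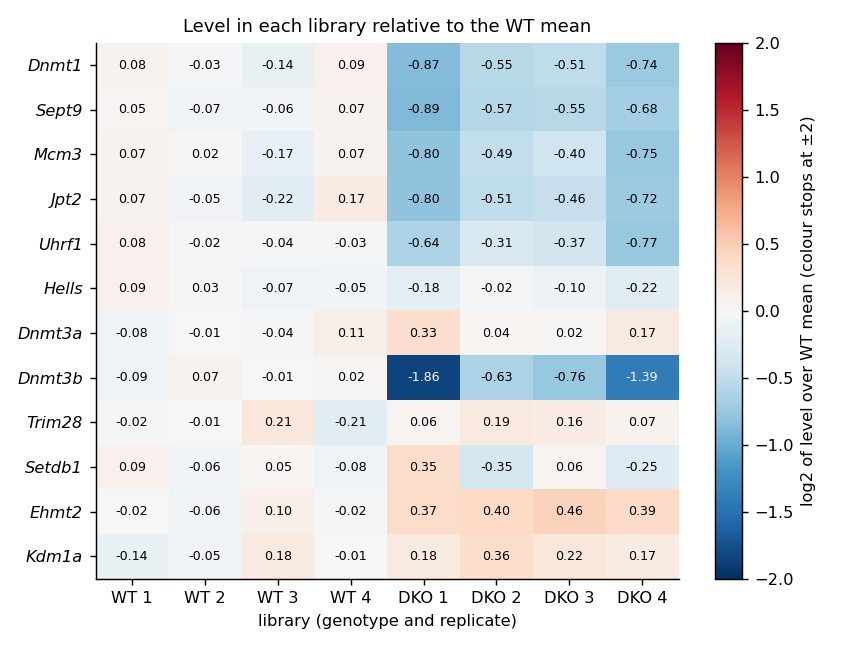
Log2 of the normalized count in each library (columns) over the WT mean for Dnmt1, its 3 nearest genes and the other 8 members (rows), with the value printed in each cell. Dnmt1, Sept9, Mcm3 and Jpt2 share a pattern in which DKO 1 and DKO 4 are lowest, while Dnmt3b reaches -1.86 in DKO 1 and Ehmt2 is between 0.37 and 0.46 in every DKO library.

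Genes that work with the 9 were read from lists, each described by counts of genes past an adjusted p of 0.05 beside the shares of all genes given above. Over all lists 24 genes fell and 12 rose, or 11 and 5 without WT replicate 1, 13 and 3 without WT replicate 2 and 13 and 4 without WT replicate 4. Over all genes tested, 1878 fell and 1867 rose. Those calls were 898 and 858 without WT replicate 1, 1050 and 1011 without WT replicate 2, and 957 and 948 without WT replicate 4. Cdca7, Cdca7l, Tdg, Mbd1, Suv39h1, Pphln1, Mcm3, Mcm4, Mcm6, Rrm1, Ifih1, Dhx58 and Mavs passed in all 15 alternatives with more than 1 library per group. Each other list gene named as called in the next paragraphs lost its call in at least 1 of them, apart from Mbd2, for which single-gene alternatives were not run. Of 18 tested genes that read or erase methylation or assist the methyltransferases, 4 fell and 3 rose, with a median log2 fold change of -0.04. Cdca7l had a WT mean of 5639 ± 342 and a DKO mean of 3222 ± 570 (log2 fold change -0.81, edgeR adjusted p = 0.00416), and its relative Cdca7, whose protein activates HELLS, had 10654 ± 661 and 6744 ± 1358 (-0.66, adjusted p = 0.00953). Hells itself did not pass, as given above. Tdg, a glycosylase of active demethylation (-0.53, edgeR adjusted p = 0.00475), and Mbd1, a reader of methylated CpG (-0.52, adjusted p = 0.00683), also fell. Mbd3 of the NuRD complex (0.43, edgeR adjusted p = 0.0239) and the reader Mbd2 (0.60, adjusted p = 0.0324) rose. Zfp57, a KRAB zinc finger protein that guards imprints, rose from 111 ± 42.1 to 509 ± 464 with overlapping groups (2.19, edgeR adjusted p = 0.0321), and 1182 counts in DKO replicate 1 were the highest. Without that library its log2 fold change was 1.35 (edgeR adjusted p = 0.0491), and without WT replicate 1, 2 or 4 it did not pass (adjusted p = 0.0840 to 0.0935). In this list no gene was called higher without WT replicate 1, 2 or 4, and 1 was without DKO replicate 4.

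Of 16 genes of H3K9 methylation and its HP1 readers, 3 fell and none rose (median -0.07). They were Suv39h1, an enzyme that trimethylates H3K9 (log2 fold change -0.54, edgeR adjusted p = 0.0101), Atf7ip, a stabilising partner of SETDB1 (-0.63, adjusted p = 0.0185), and Kdm4a, an H3K9 demethylase (-0.47, adjusted p = 0.0331). Without WT replicate 1, 2 or 4 the list had 1 gene lower. Kdm4b had the highest value of the list (0.41, edgeR adjusted p = 0.224). Of 16 genes of the HUSH complex, MORC proteins and histone chaperones, 2 fell and none rose (median -0.14): Pphln1, a HUSH subunit (-0.52, edgeR adjusted p = 0.0107), and Sumo2 (-0.34, adjusted p = 0.0487), while Fam208a, another HUSH subunit, had 0.25 (adjusted p = 0.464). Of 13 partners of KDM1A, 2 fell and 3 rose (median -0.09). Hmg20b (0.37, edgeR adjusted p = 0.0129), Hdac2 (0.35, adjusted p = 0.0255) and Rcor2 (0.66, adjusted p = 0.0306) rose. Hdac1 (-0.28, edgeR adjusted p = 0.0210) and Zmym2 (-0.42, adjusted p = 0.0454) fell, so the 2 deacetylases of the complex moved in opposite directions. The KDM1A list had 1 gene higher without WT replicate 1, 2 or 4, none lower without WT replicate 1, 3 or 4 or with upper-quartile scaling, and 1 lower without WT replicate 2 or DKO replicate 2, 3 or 4. The HUSH list had 1 gene lower when any of replicates 1, 2 and 4 of either genotype was left out.

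Of 18 KRAB zinc finger genes, 14 were tested and 12 of these had a negative log2 fold change, but only Zfp961 passed (-0.56, edgeR adjusted p = 0.0203; list median -0.39). DESeq2 called 4 genes of this list lower, and edgeR called none without WT replicate 1, 2 or 4 and 2 without DKO replicate 2, 3 or 4. Zfp708 averaged 230 ± 22.1 in WT and 54.0 ± 95.2 in DKO, with 14.7, 196, 4.88 and 0 in the DKO libraries, and did not pass (-2.09, edgeR adjusted p = 0.239). Without DKO replicate 2, the one near WT, it was called lower (-5.11, edgeR adjusted p = 0.00798). Zfp69 had the highest value (0.23, adjusted p = 0.492). Of 20 germline genes that promoter methylation keeps off in other tissues, 14 had too few counts to test, none of them above 20 counts in any library and 7 at 0 in all 8. Of the 6 tested, 1 rose. It was Brdt, a testis bromodomain gene, with a WT range of 6.08 to 16.6 and a DKO range of 33.0 to 83.0 (2.10, edgeR adjusted p = 0.0218; no longer called without WT replicate 1, 2 or 4), and Tdrd1, a gene of germ cell small RNA pathways, had means of 55.5 in WT and 10.6 in DKO (-2.37, adjusted p = 0.168). Of 7 tested retrovirus-derived genes, Peg10, an imprinted gene, alone passed and rose from 1533 ± 165 to 3242 ± 1253 (1.08, edgeR adjusted p = 0.0159), with 4852 in DKO replicate 1 and 1796 in DKO replicate 3, close to the highest WT value of 1697, and it was no longer called without WT replicate 1 or 2. Fv1 (-0.78, edgeR adjusted p = 0.109) and Rtl3 (1.73, adjusted p = 0.332) were the extremes of that list.

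DNA replication genes were read because DNMT1 and UHRF1 act on newly copied DNA. Of 24, 11 fell and none rose, with a median of -0.29. The number lower was 4, 5 and 6 without WT replicates 1, 2 and 4, 7 without DKO replicate 4, and 8 with upper-quartile scaling. Lower calls over all genes also dropped, from 1878 to 898, 1050 and 957 without these WT replicates. They were 1513 without DKO replicate 4 and 1242 with upper-quartile scaling. The 11 genes that fell included Mcm4 (-0.71, edgeR adjusted p = 0.00263), Mcm6 (-0.65, adjusted p = 0.00308) and Mcm7 (-0.40, adjusted p = 0.0161). Rrm1 of ribonucleotide reductase (-0.66, edgeR adjusted p = 0.00325) and Pola1 of the primase complex (-0.60, adjusted p = 0.0146) were also among them. E2f2 had the highest value (0.38, edgeR adjusted p = 0.110). The list summed to 225765 to 246646 normalized counts in WT and 156800 to 204385 in DKO. Replication-dependent histone transcripts, 67 genes counted together, were 21024 to 23223 in WT and 45541 to 52481 in DKO. How the libraries were primed is not stated in the study's methods, and the histone counts were not used to measure cycling cells. What the share of cycling cells contributes to the lower Dnmt1 and Uhrf1 was not tested.

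Sensors of dsRNA are given beside the silencing genes, in a list that also holds the adaptor gene Mavs and the editing enzyme gene Adar. Of these 8 genes, 4 rose and 1 fell (median 1.14). Ifih1, which encodes MDA5, had WT normalized counts of 650, 481, 460 and 483, against 1760, 1515, 2154 and 1224 in DKO (log2 fold change 1.68, edgeR adjusted p = 0.00143). Its highest DKO library was replicate 3. Ddx58, which encodes RIG-I (1.48, edgeR adjusted p = 0.0213), Dhx58, which encodes LGP2 (1.80, adjusted p = 0.00650), and Adar, an RNA editing enzyme (0.81, adjusted p = 0.0209), also rose. Ddx58 had 1250, 575, 465 and 659 normalized counts in the DKO libraries and Dhx58 had 784, 578, 454 and 600, both highest in replicate 1, where Dnmt3b was lowest. The sum of the 8 genes was likewise highest there, at 10724, against 7830, 9411 and 7202 in DKO replicates 2, 3 and 4. Replicate 4 had the next lowest Dnmt3b (3729). Of the DKO libraries it had the lowest sum of the 8 genes and the lowest Ifih1, and the next highest Ddx58 and Dhx58 after replicate 1. Without WT replicate 2, 3 or 4, 2 of the 8 genes were called higher. Higher calls over all genes then went from 1867 to 1011, 1510 and 948. Mavs, the adaptor on mitochondria, fell (-0.81, edgeR adjusted p = 0.00346), and Zbp1 had 9.14 ± 11.6 and 47.1 ± 42.6 (2.37, adjusted p = 0.245). Transcripts of the 37 mitochondrially encoded genes summed to 679509 to 771725 in WT and 1038330 to 1232587 in DKO. Whether the lower Dnmt1, Uhrf1 and Dnmt3b and the higher sensors are linked was not tested, and repeat transcripts were not counted.

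**Figure D5:**
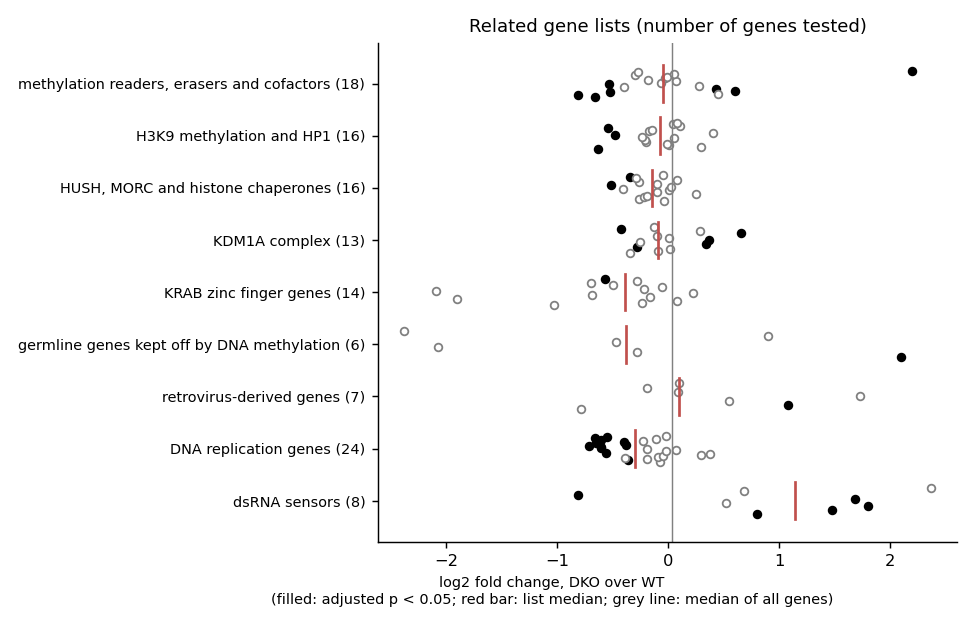
Log2 fold change in DKO over WT (x axis) of every tested gene of the 9 related lists (rows, number of genes tested in parentheses), with filled points for an adjusted p under 0.05, a red bar at the list median and a grey line at the median of all genes, 0.03. Replication genes with filled points all lie below 0. In the dsRNA sensor list, which includes Mavs and Adar, 4 of the 5 filled points lie above it.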

How the data were processed

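RNA of S0 cells was sequenced after template switching from low input. Per the labels and the study's methods, the authors trimmed reads with fastp 0.21.0, mapped them to mm10 (GRCm38) with HISAT2 2.2.1, dropped alignments of low mapping quality and made gene counts with StringTie 1.3.3b and prepDE against GENCODE. The deposited counts are whole numbers, not normalized, with a column for each library. The strand setting is not given in the sources used here, so overlapping genes are uncertain. prepDE derives counts from coverage and a set read length. Symbols, positions and exon lengths came from GENCODE M21, which matched 52489 of 52636 identifiers without their version.

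The comparison used edgeR 4.0.16 in R 4.3.3, with filterByExpr, TMM scaling, the robust quasi-likelihood test of 4 WT against 4 DKO libraries without covariates, and Benjamini-Hochberg adjustment over 17378 genes. The standard error is the log2 fold change over the root of F. Normalized counts are counts over the effective library size times its mean. The log2 CPM of each member was also permuted exactly over the 70 arrangements of libraries (two-sided), and 5 within-library ratios (counts plus 0.5) likewise. Genes named were the 9 members, up to 6 genes with the smallest p among those past 0.05 in each list, the extremes of each list, the label checks, 3 dsRNA sensors and the 3 genes most like Dnmt1. Likeness used protein-coding genes with a mean of at least 100 normalized counts. Mbd2, Epor, Adgre1, the single mesenchyme markers, Cers2, Gm37500 and Dnmt3aos were named outside this rule, after values were seen. The members, lists and tests were chosen with earlier results of these data known.

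Libraries of a group differed beyond counting noise, with 17.5 as the smallest chi-square per gene, so none was a second copy. At these depths the spread between libraries, not counting error, limited precision. Steps were tested on simulated data. Alternatives were DESeq2 1.42.0, library size alone, upper-quartile scaling, 2 other filters, a replicate block, protein-coding genes only, DKO replicate 3 alone and each library left out.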

Additional observations from a re-analysis of the deposited data

Results flagged for a closer look

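In each group of 4 libraries, the highest or lowest value was compared with its nearest neighbour by Dixon's ratio for the 9 members and the genes named from the lists. Of 96 groups, 6 held a library that stood apart at its 95% critical value for 4 values. Chance flags about 1 in 20 groups. All 6 were WT libraries.

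Uhrf1 was the member concerned, with 15041 normalized counts in WT replicate 1 against 13883 to 14070 in the other WT libraries. WT replicate 1 was also highest for Cdca7l (6147 against 5415 to 5532) and for Ifih1 (650.3 against 460 to 483). Cdca7 was low in WT replicate 3, at 9668 against 10882 to 11036. Hdac1 was low in WT replicate 2, at 11260 against 12617 to 12911. Zmym2 was high in WT replicate 4, at 2058 against 1526 to 1594. Without WT replicate 1, Uhrf1 and Cdca7l and Ifih1 kept an adjusted p under 0.05 in edgeR's quasi-likelihood test.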

How the results depend on the processing

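Dnmt1, Uhrf1, Dnmt3b and Ehmt2 kept their direction and an adjusted p under 0.05 in the 15 alternatives with more than 1 library per group, and Hells, Dnmt3a, Trim28 and Setdb1 passed in none. The number of members lower (3) held throughout. With upper-quartile scaling 2 members were higher and 0 were lower past both thresholds. That scaling also changed the split of all calls, from 50.1% lower (1878 lower and 1867 higher) to 33.3% lower (1242 and 2492), and the median of all genes from 0.03 to 0.14. Taking DKO replicate 3 alone, where the lone library is assumed to vary like WT and gives no spread of its own, the count of members past both thresholds was 0, and the related lists had 14 genes lower and 5 higher in place of 24 and 12. Leaving out each library gave 0 to 1 members past both thresholds (0 without DKO replicate 1 or DKO replicate 4), 11 to 27 list genes lower and 3 to 12 higher. The lowest counts came without WT replicate 1 (11 lower, 5 higher), WT replicate 2 (13 and 3) and WT replicate 4 (13 and 4). Calls over all genes were 898 lower and 858 higher without WT replicate 1, 1050 and 1011 without WT replicate 2, and 957 and 948 without WT replicate 4. Fewer libraries were fitted in these alternatives, and any further cause was not tested. Without DKO replicate 1, the ratios Dnmt3a/Dnmt3b (1.01), Dnmt1/Hells (-0.49) and Ehmt2/Setdb1 (0.60) had an adjusted exact permutation p of 0.0476. It was 0.143 to 0.190 for them without any 1 WT library, 0.0714 to 0.143 without another DKO library and 0.156 with the replicate block. Over all libraries left out in turn, these ratios ranged from 1.01 to 1.51, from -0.58 to -0.49 and from 0.35 to 0.60.

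DESeq2 gave 34 list genes lower and 12 higher. With the replicate block, 14 list genes were lower and 5 higher, among them 5 of the replication genes lower, while the calls for the members were unchanged. The replicate numbers did not pair the libraries: deviations of same-numbered libraries from their group means correlated at -0.17, 0.15, -0.08 and -0.00014, and 1 of 4 DKO libraries correlated best with the WT library of its own number.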
